A study of Homo sapiens with 6 samples.

Results

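The genes described here are 10 reported targets of miR-155, which were followed in NK92 cells after knockdown of miR155HG, the transcript that carries miR-155. They were found by their symbols among the 36601 genes of the count table, and all 10 were present: *INPP5D*, *TAB2*, *PICALM*, *BACH1*, *CEBPB*, *FOXO3*, *ETS1*, *MYB*, *MAF* and *JARID2*. NK92 is an established human NK cell lymphoma line that depends on IL-2. The cells stably expressed either shCtrl, a control hairpin, or shmiR155HG, a hairpin that targets miR155HG, with 3 RNA-seq libraries per group. Both groups were kept for 12 h before RNA extraction with IL-12 at 10 ng/mL together with IL-2 at 1000 U/mL. Poly(A) RNA was read, so mature miR-155, which has no poly(A) tail, was not measured. A single shRNA against miR155HG is named, and whether the libraries of a group came from separate cultures is not given, so p-values measure the spread between these libraries, which may be technical.

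miR-155 is cut from the miR155HG transcript and guides an Argonaute protein to mRNAs, mostly by pairing of its seed, bases 2 to 8, with the 3′UTR of the target. Such pairing lowers translation and speeds decay of the mRNA, so that targets often rise when a miRNA is lost. In lymphocytes miR-155 is induced on activation, and its targets include phosphatases and adaptors of receptor signalling and transcription factors of lymphoid and myeloid cells. The comparison of shmiR155HG with shCtrl therefore asks whether the mRNA levels of these targets changed when the host transcript was knocked down.

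The sequences below show the seed and the places in the targets that could pair with it. Mature miR-155-5p (RefSeq, GRCh38.p14) lies on the plus strand at chr21:25573983-25574006, in exon 4 of the 4 exons of the canonical *MIR155HG* transcript. Its seed is in capitals.
miR-155-5p: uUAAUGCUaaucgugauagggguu
The 3′UTR of the canonical GENCODE transcript of each target was searched on the sense strand for AGCATTAA (8mer, pairing with the seed followed by A), AGCATTA (7mer-m8, the seed alone) and GCATTAA (7mer-A1, bases 2 to 7 followed by A). The 8mer holds both shorter motifs, and each place was counted once, by its longest match. In all, 9 of the 10 targets held a match, with 20 matches between them (9 of 8mer, 9 of 7mer-m8 and 2 of 7mer-A1). Among the 18891 genes of the count table with an annotated 3′UTR, the best match was an 8mer in 4.17%, a 7mer-m8 in 6.70% and a 7mer-A1 in 5.11%, and 84.0% had none.

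One 8mer is shown for each target that has any, and both 7mer-m8 matches for *PICALM* and *MYB*, the targets that held matches but no 8mer. Each stretch is 22 bases of hg38, 5′ to 3′ on the strand of the gene, and the match is in capitals.
INPP5D, chr2:233207214-233207235, plus strand: ttcggaggggtgaaAGCATTAA
TAB2, chr6:149410523-149410544, plus strand: ccttaaaataaaaaAGCATTAA
BACH1, chr21:29344997-29345018, plus strand: cctataaacagtttAGCATTAA
CEBPB, chr20:50192611-50192632, plus strand: tcttttccgtttcaAGCATTAA
FOXO3, chr6:108680798-108680819, plus strand: tgaacttacaggtgAGCATTAA
ETS1, chr11:128461434-128461455, minus strand: atgttgagctaagaAGCATTAA
JARID2, chr6:15520383-15520404, plus strand: actaattttgttttAGCATTAA
PICALM first, chr11:85958278-85958299, minus strand: gtgggatttagggaAGCATTAt
PICALM second, chr11:85958181-85958202, minus strand: tacattttaaattcAGCATTAg
MYB first, chr6:135217981-135218002, plus strand: gacatttccagaaaAGCATTAt
MYB second, chr6:135218397-135218418, plus strand: taaaaatcagtaaaAGCATTAc

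*BACH1* and *FOXO3* held the most matches, 4 each, in 3′UTRs of 3315 and 4982 nt. *PICALM* held 3 in 1871 nt, of which a 7mer-m8 and a 7mer-A1 lie close together, starting at positions 761 and 773. *ETS1* and *JARID2* each held 2 matches, all of them 8mers, and *MYB* held 2 of 7mer-m8, the first starting at position 15 of its 3′UTR of 1192 nt. *INPP5D*, *TAB2* and *CEBPB* each held a single 8mer, and that of *CEBPB* ended 36 nt before the end of a 3′UTR of 597 nt. The annotated 3′UTR of *MAF* (622 nt) held none of the 3 motifs.

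**Figure D1:**
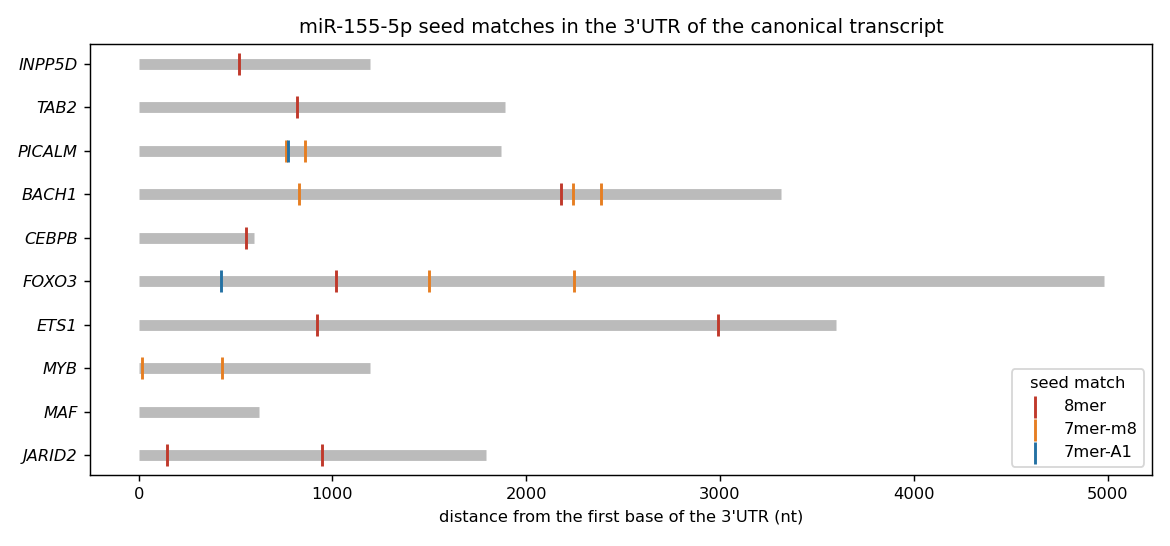
Position of each miR-155-5p seed match in the 3′UTR of the canonical transcript of the 10 targets, with the distance from the first base of the 3′UTR in nt on the horizontal axis. Grey bars are 3′UTRs drawn to length and coloured ticks are matches by type. *BACH1* and *FOXO3* carry 4 matches each, the first pair in *PICALM* (positions 761 and 773) nearly coincides at this scale, and *MAF* carries none.

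The total count lay between 33454786 and 39157264 per library. The NK label was checked with 12 marker genes, of which 11 were over 1 CPM in every library, while *CD7* had at most 32 counts. Their summed level was 3752 to 3838 CPM in shCtrl and 3133 to 3268 CPM in shmiR155HG libraries. Of these markers, 2 were higher (*EOMES* and *TBX21*) and 3 lower (*GZMB*, *PRF1* and *NCR3*). *GZMB* changed most in CPM, from a mean of 1195 in shCtrl to 543 in shmiR155HG cells. The 16 markers of T, B, myeloid, erythroid, liver, epithelial and stromal cells had at most 43 counts in a library and summed to 1.23 to 1.93 CPM in shCtrl and 1.54 to 2.21 CPM in shmiR155HG libraries, with *CD8B*, *HBG1* and *HBG2* at 0. Of 26 histone genes of the HIST clusters, whose mRNAs mostly lack a poly(A) tail, 14 were higher and 0 lower in shmiR155HG cells, and their median log2 fold change was 0.94. Fold changes also moved with base composition: the median log2 fold change was −0.053 in the 3055 genes with the lowest GC content of the transcript and 0.064 in the 3054 with the highest. The part of the marker and histone differences in the results below was not tested. Log2 fold changes after a GC correction are given for the 9 targets tested. They are also given for other named genes that it moved by over 1.5 times or across the threshold.

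The targeted transcript, *MIR155HG* (ENSG00000234883, a lncRNA at chr21:25561810-25575168), was lower in each shmiR155HG library. With libraries always given in the order of replicates 1, 2 and 3, it had 73, 67 and 62 counts in the shCtrl libraries, against 28, 19 and 10 counts in the shmiR155HG libraries. The normalized level fell from 1.77 ± 0.155 CPM (SD, n = 3) to 0.509 ± 0.216 CPM (SD, n = 3), a change of −70.8% (95% interval −84.2% to −46.3%, adjusted p = 0.00450 by the quasi-likelihood test of edgeR). *MIR155HG* passed the filter on low counts, given below, only through the shCtrl libraries, since no shmiR155HG library reached 1 CPM. The groups did not overlap, but the level of miR-155 left in these cells cannot be read from the host transcript.

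Of the 10 targets, 9 passed the filter on low counts, which asked for 2 or more libraries above 1 CPM. With p-values adjusted over the 12263 genes tested and a threshold of 0.05, *INPP5D* was higher in shmiR155HG cells, *PICALM* and *MYB* were lower, and the other 6 did not pass. So 1 target was higher and 2 were lower, where 7.26% of all genes tested were called higher and 8.02% lower, or 15.3% in either direction. The groups did not overlap for 5 of the 9 (*INPP5D*, *PICALM*, *MYB*, *CEBPB* and *JARID2*), against 30.8% of all genes tested. The median log2 fold change of the 9 targets was −0.020, with 4 above and 5 below 0, beside 0.00097 over all genes tested. After a GC correction, 0 targets were higher and 3 lower, since *INPP5D* no longer passed and *CEBPB* did. Over all genes tested, 703 were then higher and 1110 lower, in place of 890 and 984. The correction reversed the trend with GC content. The median log2 fold change was then −0.0029 in the 3055 genes of lowest GC content and −0.033 in the 3054 of highest. The part of this reversed trend in the corrected calls was not tested. In a bulk sample, less RNA per cell and fewer cells with the RNA cannot be told apart.

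**Figure D2:**
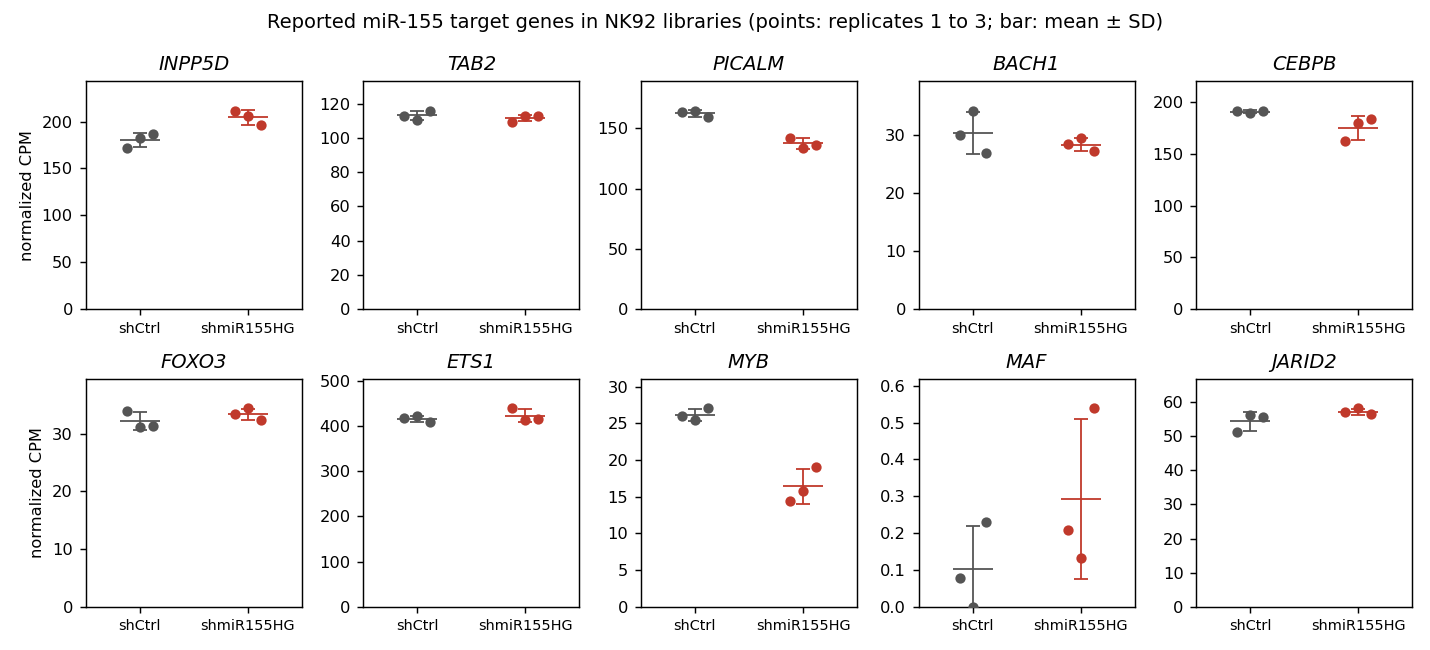
Normalized CPM of each target by library, with shCtrl in grey and shmiR155HG in red. Points are replicates 1 to 3 and bars are the mean ± SD, each panel has its own axis from 0, and the groups are apart for *MYB*, *PICALM* and *INPP5D* while they overlap for *TAB2*, *BACH1*, *FOXO3*, *ETS1* and *MAF*.

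Among the targets in signalling and membrane traffic, *INPP5D* (ENSG00000168918, chr2:233059967-233207903, plus strand) encodes SHIP1, a lipid phosphatase that limits PI3K signalling and restrains NK cell receptors. Its level was 172.0, 182.2 and 187.0 CPM in the shCtrl libraries, against 211.5, 206.1 and 195.9 CPM in the shmiR155HG libraries. Each shmiR155HG library lay above each shCtrl library. The increase was 13.4% (95% interval 6.78% to 20.4%), or 0.18 on the log2 scale (SE 0.042, adjusted p = 0.00332 by the quasi-likelihood test of edgeR). *INPP5D* stayed at an adjusted p under 0.05 when any 1 library was left out (highest 0.0391), but the GC correction lowered its log2 fold change to 0.11 (adjusted p = 0.0703 by the same test). Its transcript has a GC content of 56.3%, and the rise was below the fold change of 1.2 that the study required.

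*TAB2* (ENSG00000055208, chr6:149218641-149411613, plus strand) encodes an adaptor that brings the kinase TAK1 to ubiquitin chains below TLR, IL-1 and TNF receptors. Its level was 113.1, 110.6 and 115.9 CPM in the shCtrl libraries, against 109.6, 112.7 and 112.8 CPM in the shmiR155HG libraries. The groups overlapped, and the difference was −1.36% (95% interval −7.74% to 5.47%, adjusted p = 0.839 by the quasi-likelihood test of edgeR). A rise of the size seen for *INPP5D* lay outside this interval. After the GC correction the sign of the log2 fold change turned, to 0.012, and without single libraries it lay between −0.035 and −0.00035.

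*PICALM* (ENSG00000073921, chr11:85957175-86069882, minus strand) encodes a clathrin adaptor that shapes endocytic vesicles. Its level was 163.9, 164.7 and 159.4 CPM in the shCtrl libraries, against 142.3, 133.8 and 136.4 CPM in the shmiR155HG libraries. The highest shmiR155HG library lay below the lowest shCtrl library, opposite to the direction in which *INPP5D* moved. The change was −15.5% (95% interval −20.4% to −10.2%), or −0.24 on the log2 scale (SE 0.043, adjusted p = 0.000177 by the quasi-likelihood test of edgeR). Without 1 library at a time the log2 fold change lay between −0.27 and −0.22, and the highest adjusted p was 0.00510. After the GC correction it was −0.20 (adjusted p = 0.00117 by the same test).

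Among the transcription factors, *MYB* had the largest difference of the 9 targets tested. *MYB* (ENSG00000118513, chr6:135181308-135219173, plus strand) is a factor of proliferating blood progenitors. Its level was 26.01, 25.4 and 27.0 CPM in the shCtrl libraries, against 14.4, 15.7 and 19.1 CPM in the shmiR155HG libraries. The highest shmiR155HG library was below the lowest shCtrl library, and the spread was wider in shmiR155HG (SD 2.40 CPM) than in shCtrl cells (SD 0.800 CPM). The change was −37.4% (95% interval −46.3% to −26.9%), or −0.67 on the log2 scale (SE 0.11, adjusted p = 5.52e-05 by the quasi-likelihood test of edgeR). It lay between −0.79 and −0.59 when 1 library at a time was left out. After the GC correction it was −0.65 (adjusted p = 0.000105 by the same test). *MYB* was the only target that also passed the rule of the study, an unadjusted P under 0.01 with a fold change over 1.2 in edgeR's exact test.

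*CEBPB* (ENSG00000172216, chr20:50190830-50192668, plus strand) encodes C/EBPβ, a bZIP factor of myeloid and inflammatory gene expression, from a gene with 1 exon. Its level was 192.0, 189.9 and 191.6 CPM in the shCtrl libraries, against 162.6, 180.2 and 184.3 CPM in the shmiR155HG libraries. The groups did not overlap, and shmiR155HG replicate 1 was the lowest library. The difference was −0.12 on the log2 scale (SE 0.044, adjusted p = 0.0607 by the quasi-likelihood test of edgeR), which did not pass. Without shmiR155HG replicate 3 it was −0.16 (adjusted p = 0.0426), while over all libraries left out in turn it lay between −0.16 and −0.069, with adjusted p up to 0.369. *CEBPB* has the highest GC content of the 10 targets, 66.2%, and after the GC correction its log2 fold change was −0.25 (adjusted p = 9.41e-05 by the same test).

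*ETS1* (ENSG00000134954, chr11:128458761-128587558, minus strand), a factor needed for NK cell development, had the highest CPM of the 10 targets. It stood at 417.3, 421.0 and 408.3 CPM in the shCtrl libraries, against 438.5, 413.6 and 415.8 CPM in the shmiR155HG libraries. The groups overlapped, and only shmiR155HG replicate 1 lay above all shCtrl libraries. The difference was 1.71% (95% interval −3.10% to 6.76%, adjusted p = 0.706 by the quasi-likelihood test of edgeR), or 0.025 on the log2 scale. It was −0.0026 without shmiR155HG replicate 1 and 0.057 after the GC correction. The interval was the narrowest of the 9 targets tested.

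*BACH1* (ENSG00000156273, chr21:29194071-29630751, plus strand) encodes a haem-sensing repressor of antioxidant genes, and lies on the same chromosome as *MIR155HG*, 3.62 Mb further along. Its level was 30.0, 34.2 and 26.8 CPM in the shCtrl libraries, against 28.4, 29.4 and 27.2 CPM in the shmiR155HG libraries. All shmiR155HG libraries lay within the range of the shCtrl libraries. The difference was −6.56% (95% interval −18.0% to 6.52%, adjusted p = 0.548 by the quasi-likelihood test of edgeR), or −0.098 on the log2 scale. It was −0.0030 without shCtrl replicate 2, −0.18 without shCtrl replicate 3 and −0.044 after the GC correction, and passed under none of these.

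*FOXO3* (ENSG00000118689, chr6:108559835-108684774, plus strand), a forkhead factor that AKT keeps out of the nucleus, had as many matches as *BACH1*. It stood at 34.0, 31.1 and 31.4 CPM in the shCtrl libraries, against 33.3, 34.4 and 32.4 CPM in the shmiR155HG libraries. The groups overlapped, with a difference of 3.68% (95% interval −7.44% to 16.1%, adjusted p = 0.734 by the quasi-likelihood test of edgeR), or 0.052 on the log2 scale. After the GC correction it was 0.032, and without single libraries it lay between 0.030 and 0.094, lowest without shCtrl replicate 2 and highest without shCtrl replicate 1.

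*MAF* (ENSG00000178573, chr16:79585843-79600737, minus strand), a bZIP factor of T helper cells, was barely detected. It had 3, 0 and 9 counts in the shCtrl libraries, against 8, 5 and 18 counts in the shmiR155HG libraries. The groups overlapped, and no library reached 1 CPM, so *MAF* was not tested and no fold change is given.

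The chromatin factor *JARID2* (ENSG00000008083, chr6:15246069-15522042, plus strand) helps to bring Polycomb repressive complex PRC2 to its genes. Its level was 51.2, 56.3 and 55.6 CPM in the shCtrl libraries, against 57.0, 58.1 and 56.4 CPM in the shmiR155HG libraries. Each shmiR155HG library was above each shCtrl library, but shmiR155HG replicate 3 and shCtrl replicate 2 nearly met, and shCtrl replicate 1 was lower than the rest. The difference was 5.19% (95% interval −4.05% to 15.3%, adjusted p = 0.516 by the quasi-likelihood test of edgeR), or 0.073 on the log2 scale. It was 0.033 without shCtrl replicate 1 and 0.043 after the GC correction.

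**Figure D3:**
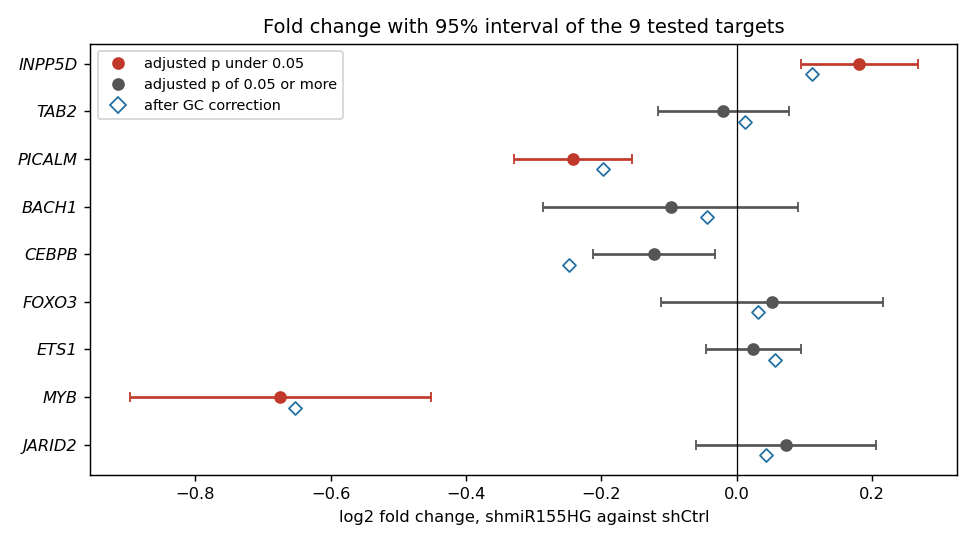
Log2 fold change of the 9 tested targets (horizontal axis, shmiR155HG against shCtrl) with 95% intervals from the quasi-likelihood fit. Red marks an adjusted p under 0.05 and grey the rest, and open blue diamonds give the value after the GC correction. *MYB* (−0.67) and *PICALM* (−0.24) lie below 0 and *INPP5D* (0.18) above it, and the correction moves *CEBPB* to −0.25 and *INPP5D* to 0.11.

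Per kb of the canonical transcript, the level in shCtrl cells was highest for *CEBPB* (103.9 CPM per kb), followed by *ETS1* (80.9), *PICALM* (39.4), *INPP5D* (36.8), *TAB2* (25.9), *JARID2* (9.05), *MYB* (7.10), *BACH1* (5.40), *FOXO3* (4.41) and *MAF* (0.0385). The shCtrl libraries of neighbours in this order did not overlap. In shmiR155HG cells *INPP5D* (41.7 CPM per kb) stood above *PICALM* (33.3), which is the reverse of their order in shCtrl cells. *BACH1* (5.04) and *FOXO3* (4.57) stood above *MYB* (4.45) there, and the libraries of both overlapped those of *MYB*. The 3 targets that passed the test thus came from both the upper and the lower part of the range of levels.

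Some targets overlap other genes in the annotation, and whether counting used the strand is not given. *MYB-AS1* had 0 counts in all libraries, *ETS1-AS1*, *JARID2-AS1*, *BACH1-AS1* and *TAB2-AS1* had at most 8 counts in a library, and *CEBPB-AS1* had between 20 and 58. The overlapping gene with the most counts relative to its target was *BACH1-IT1*, with 1.38% of the *BACH1* counts. *PICALM*, *INPP5D*, *FOXO3* and *MAF* overlap no other gene of the count table.

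Whether fold changes followed the seed matches was described over all genes with a 3′UTR that were tested, 10750 in number. The median log2 fold change was −0.0059 for the 501 genes with an 8mer, −0.032 for 775 with a 7mer-m8, −0.023 for 596 with a 7mer-A1 and −0.00036 for 8878 with no match. The genes with an 8mer were called higher and lower equally often, 49 genes each (9.78%), and genes with no match in 7.78% and 8.44% of cases. Of the genes with a 7mer-m8, 5.81% were higher and 11.6% lower, and of those with a 7mer-A1, 5.54% and 11.6%. The 2 targets that fell, *MYB* and *PICALM*, had a 7mer-m8 as their best match, whereas *INPP5D* and the 6 tested targets that did not pass had an 8mer, with log2 fold changes from −0.12 to 0.18.

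Genes with a match differ from the rest in base composition. The median GC content of the transcript was 41.7% with an 8mer and 50.3% with no match, and the median 3′UTR was 3382 nt against 1004 nt. The median of genes with an 8mer or 7mer-m8 lay 0.020 below that of genes with no match on the log2 scale, with −0.011, −0.018 and −0.029 for shmiR155HG replicates 1, 2 and 3 (SD 0.0091). After the GC correction this difference was 0.030, with the opposite sign. The medians were then 0.013 for an 8mer, −0.0033 for a 7mer-m8, −0.011 for a 7mer-A1 and −0.025 for no match. The direction of the shift of genes with a match thus depends on the treatment of GC content, and no test was made of it. The correction also left a GC trend of the opposite sign. The median log2 fold change was then −0.0029 in the 3055 genes of lowest GC content and −0.033 in the 3054 of highest. The part of this trend in the difference of 0.030 was not tested.

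**Figure D4:**
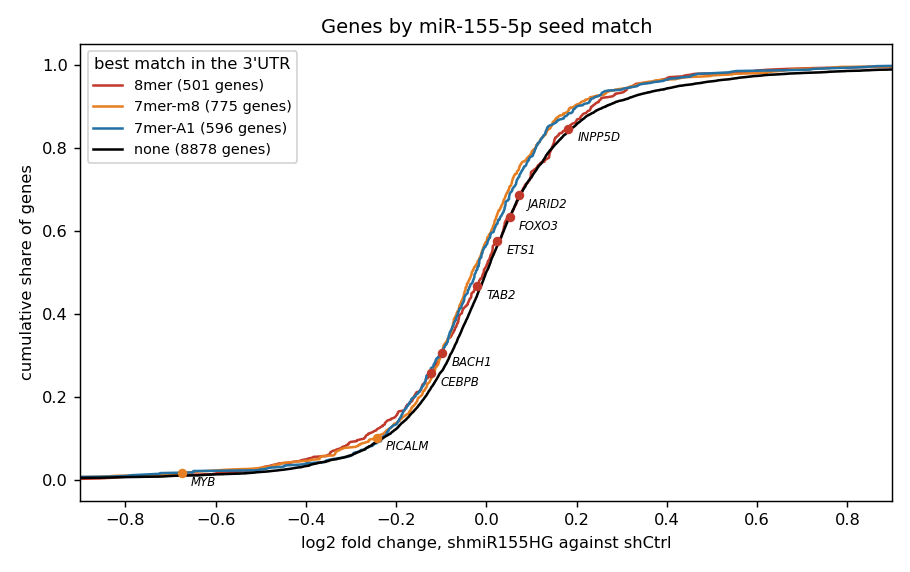
Cumulative share of genes (vertical axis) by log2 fold change (horizontal axis, cropped at ±0.9) for the 4 classes of best miR-155-5p match in the 3′UTR, before the GC correction. Dots mark the 9 tested targets on the curve of their class. The medians of the 4 curves lie between −0.032 and −0.00036, and *MYB* is the target farthest from the middle of its curve.

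A further 41 genes reported as miR-155 targets were read from the same fit, 36 of which were tested. In this list 8 genes were higher and 3 lower, where 7.26% and 8.02% of all genes tested were, and the median log2 fold change was 0.015 (0.00097 over all genes tested). *SPI1*, encoding PU.1, a classic target in myeloid and B cells, had 0 counts in all libraries, as did *AGTR1* and *IL13RA1*. *SOCS1*, the suppressor of cytokine signalling that miR-155 is best known to restrain in lymphocytes, differed by 0.20 on the log2 scale (SE 0.12, adjusted p = 0.297 by the quasi-likelihood test of edgeR), and by 0.07 after the GC correction (adjusted p = 0.747 by the same test). Its level was 13.8, 13.8 and 13.4 CPM in the shCtrl libraries, against 14.6, 16.5 and 15.9 CPM in the shmiR155HG libraries, with no overlap. Without shCtrl replicate 2, shmiR155HG replicate 2 or shmiR155HG replicate 3, 7 genes of the list were called in place of 11.

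Among the genes of this list that passed, *SLA*, *SKI*, *FOSL2* and *FOS* had the largest log2 fold changes. *SLA*, an adaptor that lowers antigen receptor signalling, fell from 16.7 ± 2.55 to 12.2 ± 0.511 CPM (SD, n = 3), a log2 fold change of −0.46 (adjusted p = 0.0150 by the quasi-likelihood test of edgeR). *SKI*, a repressor of TGF-β signalling, rose from 100.9 ± 7.88 to 135.8 ± 3.91 CPM (SD, n = 3), a log2 fold change of 0.43 (adjusted p = 8.99e-07 by edgeR). *FOSL2* and *FOS*, both AP-1 subunits, rose by log2 fold changes of 0.36 (adjusted p = 0.000268 by edgeR) and 0.36 (adjusted p = 0.0345 by edgeR). *IKBKE* (−0.29) and *IFNGR1* (−0.35), named after their values were seen, were the other 2 genes that fell.

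Of the 36 tested genes of this list, 19 had an 8mer in the 3′UTR, a split chosen after the values were seen. The list was also chosen with earlier results of these data known, so the counts are a description and not a test. The shares over all genes were not matched for expression level. Among these 19, 7 were higher and 0 lower, where 9.78% of all tested genes with an 8mer were higher and as many lower. Their median log2 fold change was 0.14. After the GC correction 5 (*FOSL2*, *HIVEP2*, *CUX1*, *WEE1* and *TSPAN14*) were higher and 0 lower, with a median of 0.11. Over all 12263 genes tested, 703 were then higher and 1110 lower. The corrected shares among all genes with an 8mer are not given. The 7 tested targets with an 8mer among the 10 described above had 1 higher (*INPP5D*) and 0 lower before the correction. The uncorrected share of all tested genes with an 8mer was 9.78% in each direction. After the correction *INPP5D* no longer passed (0.11, adjusted p = 0.0703 by edgeR). *CEBPB*, which also has an 8mer, was then lower (−0.25, adjusted p = 9.41e-05 by edgeR). The *FOS* rise did not pass after the GC correction (0.31, adjusted p = 0.0730 by edgeR). Of the 36 other reported targets tested, 30 had a match of any type, with 8 higher, 2 lower and a median of 0.016. Over all tested genes with any match, 6.78% were higher and 11.1% lower. The 6 with no match had 0 higher, 1 lower and a median of 0.015. *SLA* and *IKBKE*, which fell, held 2 matches each, with a 7mer-m8 as the best. *MATR3* was left out of the list, since 2 gene IDs of the count table carry this symbol.

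Relatives and partners of the targets were read as a list of 37 genes, of which 31 were tested, with 3 higher, 3 lower and a median log2 fold change of −0.067. The share called was 19.4%, beside 15.3% of all genes tested. Within the MYB family, *MYBL2*, a cell cycle factor, fell with *MYB* (−0.25, adjusted p = 8.63e-05 by edgeR), whereas *MYBL1*, which has an 8mer, rose (0.21, adjusted p = 0.00166 by edgeR). *ETS2* rose from 72.5 ± 2.23 to 90.6 ± 2.26 CPM (SD, n = 3), a log2 fold change of 0.32 (adjusted p = 0.000139 by edgeR), next to the 0.02 of *ETS1*. *MAFF*, a small MAF protein that pairs with BACH1, rose by 0.65 (SE 0.16, adjusted p = 0.00573 by edgeR) from 7.40 ± 1.25 CPM (SD, n = 3). Of the core subunits of PRC2, with which JARID2 works, *SUZ12* fell by 0.22 (adjusted p = 4.35e-05 by edgeR) and *EZH2* fell by 0.14 (adjusted p = 0.00695 by edgeR), while *EED* had −0.17 (adjusted p = 0.118 by edgeR). The core subunits *RBBP4* (−0.086, adjusted p = 0.102 by edgeR) and *RBBP7* (−0.089, adjusted p = 0.111 by edgeR) did not pass. *RBBP4* had −0.047 after the GC correction. *MYBL1*, *EZH2*, *EED*, *RBBP4* and *RBBP7* were named after their values were seen. *SUZ12* held 1 seed match, a 7mer-m8, and *RBBP4* held 3, with a 7mer-A1 as the best. *MAFF*, *ETS2*, *MYBL2*, *EZH2*, *EED* and *RBBP7* held no seed match.

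**Figure D5:**
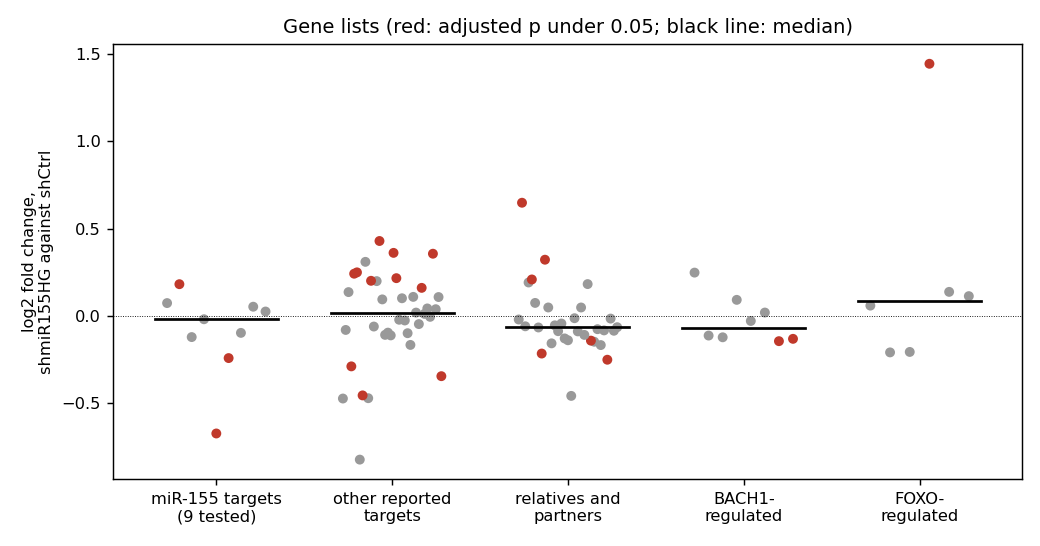
Log2 fold change (vertical axis) of the tested genes of each list, 1 point per gene, red where the adjusted p was under 0.05, with the median as a black line. The medians lie between −0.071 and 0.086, and called genes lie on both sides of 0 for the targets, the other reported targets and the relatives.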

How the data were processed

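RNA-seq libraries of NK92-shCtrl and NK92-shmiR155HG cells (3 each) were used. The deposited values are whole-number counts per gene without normalization, which the authors made with HISAT2 (hg38), StringTie limited to reference transcripts, and prepDE.py3. The annotation release, strandedness and read length given to prepDE.py3 are not given in the sources used here. The treatment label of shmiR155HG replicates 2 and 3 spells the gene differently, and groups were taken from the titles.

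The analysis used edgeR 4.0.16 (R 4.3.3) on genes above 1 CPM in 2 or more libraries, with TMM scaling, the robust quasi-likelihood test without a block, and Benjamini-Hochberg adjustment over 12263 genes. The filter is that of the study, whose exact test was run as an alternative, as were DESeq2 1.42.0 and limma 3.58.1 (voom). SE is the log2 fold change divided by the root of F, and 95% intervals use the t distribution at the degrees of freedom of the fit. CPM values are normalized, and intervals cover the spread between libraries. The GC correction fitted a loess curve per library (span 0.5) to the deviation of log2 CPM from the mean of the gene against the GC content of the canonical transcript, and used the curves as offsets. From the lowest to the highest of 4 bins of GC content, the median log2 fold change ran from −0.053 to 0.064 without it. With it, the median ran the other way, from −0.0029 to −0.033, and was below 0 in every bin. The methods were tested on simulated data.

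Gene models, 3′UTRs and overlaps came from GENCODE v44 (hg38), in which 99.4% of the gene IDs were found. Each printed stretch was checked against hg38. The authors' release may differ, and other 3′UTR ends in NK92 cells were not examined.

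The 10 targets and all lists were chosen with earlier results of these data known. Named genes were the 10 targets, *MIR155HG*, *SOCS1*, *SPI1* and, from each list, up to 4 genes with the largest absolute log2 fold change at an adjusted p under 0.05 and a mean of at least 1 CPM.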

Additional observations from a re-analysis of the deposited data

How the results depend on the processing

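Each result was recomputed under 17 alternatives (scaling, filter, test, halved counts, replicate block, GC correction, and omission of single libraries). The rule of the study with edgeR's exact test called fewer genes: 1019 in place of 1874 in all, 1 in place of 3 targets, 6 in place of 11 other reported targets, 2 in place of 6 relatives (*ETS2* and *MAFF*) and 1 in place of 3 genes regulated by BACH1 or FOXO (*KLF2*). The GC correction called 5 of the latter, among them the 3 called without it (*FTL*, *TXNRD1* and *KLF2*), and moved the difference between genes with and without a seed match to 0.030, and it turned the sign of *TAB2* (0.012). Without shmiR155HG replicate 1 the sign of *ETS1* turned (−0.0026, with a range from −0.0026 to 0.041 over the libraries left out). With single libraries left out, the calls ranged from 1254 to 1808 over all genes, 3 to 4 over the targets, 7 to 10 over the other reported targets, 4 to 6 over the relatives and 1 to 4 over the genes regulated by BACH1 or FOXO. *MIR155HG* stayed lower in the 16 alternatives that gave a value (−2.13 to −1.52), and with a mean CPM of at least 5 the filter removed it. *MYB* passed in all 17. The causes of these changes were not tested. Using the longest annotated 3′UTR moved the seed match difference by less than its SD.

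Libraries with the same replicate number did not deviate together (r between −0.013 and 0.020 for the 3 pairs), so the numbers were not taken as pairs. With the replicate block the log2 fold change was −0.68 for *MYB*, −0.24 for *PICALM* and 0.18 for *INPP5D*, with 1738 genes called in all and 3 targets.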

Other observations

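Genes that 2 of the targets are known to regulate were read from the same fit. Of 10 genes that BACH1 represses, most of them in antioxidant defence and iron storage, 8 were tested, with 0 higher, 2 lower and a median log2 fold change of −0.071, where 7.26% of all genes tested were higher and 8.02% lower. *TXNRD1*, encoding thioredoxin reductase, changed from 246.6 ± 6.68 to 223.0 ± 6.45 CPM (SD, n = 3), a log2 fold change of −0.15 (adjusted p = 0.00891 by edgeR), and *FTL*, the ferritin light chain, from 188.4 ± 1.97 to 171.9 ± 6.49 CPM (SD, n = 3), a log2 fold change of −0.13 (adjusted p = 0.0258 by edgeR). After the GC correction that of *FTL* was −0.20 (adjusted p = 0.000687 by edgeR). *HMOX1*, the best known gene repressed by BACH1, and *ME1* had 0 counts in all libraries. *BACH1* mRNA itself overlapped between the groups.

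Of 9 genes activated by FOXO factors, 6 were tested, with 1 higher, 0 lower and a median log2 fold change of 0.086, beside the same shares over all genes. The gene that rose was *KLF2*, a factor of lymphocyte quiescence and egress, with 37, 84 and 79 counts in the shCtrl libraries, against 182, 180 and 164 counts in the shmiR155HG libraries. Its log2 fold change was 1.44 (SE 0.29, adjusted p = 0.000894 by edgeR), larger in size than that of any of the 9 miR-155 targets tested, and its 3′UTR held no seed match. Without shmiR155HG replicate 2, only *KLF2* of both lists together was called, 1 gene in place of 3.

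*BACH1* and *FOXO3* belong to the 35 tested genes with 4 or more seed matches, whose median log2 fold change was −0.021. The 426 genes with 2 or more matches had a median of −0.016.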
